A study of Mus musculus with 8 samples.

Results

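Type I interferon-stimulated genes are the antiviral genes that cells switch on when interferon alpha or beta binds its receptor. A set of 39 of them, chosen by gene symbol, was read out of a table of 34745 genes measured in mouse CD4+ T cells, and all 39 had a row there. They comprise the regulators and RNA sensors of the response, the ISG15 and ubiquitin genes, the IFIT, OAS, PARP and Schlafen families, and further antiviral effectors. All 39 passed the filter on low counts, which kept 14690 genes.

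The study sequenced RNA from spleen CD4+ T cells of wild type C57BL/6 mice in 4 groups of 2 libraries. Naive cells were taken straight from the spleen as CD4+ cells, with no further gate named, and Th0 cells were activated with antibodies to CD3 and CD28 and collected after 3 days. Th17 cells (helper cells that make IL-17) and Treg cells (suppressive cells defined by Foxp3) were collected after 3 days of culture in the matching differentiation conditions, whose cytokines the labels do not list. Nothing in the labels ties a library to an animal or a culture. The p-values below therefore reflect no more than the variation from library to library, which could be technical in origin.

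In the textbook pathway, interferon alpha or beta engages the receptor chains Ifnar1 and Ifnar2, and the kinases Jak1 and Tyk2 then act on Stat2 and its partners. A complex that includes Stat2 and Irf9 binds an interferon-stimulated response element in the promoters of target genes. The products detect viral RNA, block its translation or degrade it, trap budding virions, or feed back on the pathway. Resting lymphocytes are known to carry a low tonic level of this response.

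Total counts ran from 12504463 to 22443368 per library. Levels below are counts scaled by TMM factors to a common library size (CPM), which compare 1 gene between libraries, and a count of 3 in 1 library, the upper limit that a count of 0 allows, corresponded to 0.130 to 0.231 CPM, for counting error only. Foxp3 measured 317 and 270 CPM in the Treg libraries, 95.01 and 101 CPM in naive, and 4.70 to 9.93 CPM in Th0 and Th17. The IL-17 gene Il17f measured 136 and 89.5 CPM in Th17, 23.0 and 12.95 CPM in Treg and 0.390 to 1.15 CPM in the other libraries, while Il17a measured 60.9 and 33.7 CPM in Th17 and 57.4 and 34.3 CPM in Treg. The naive libraries held transcripts of other cells. The 19 myeloid and dendritic cell markers summed to 4962 and 4736 CPM there, against 37.6 to 163 CPM in the 6 cultured libraries, and the 18 pan T cell genes to 5584 and 6122 CPM against 5935 to 8433 CPM. In such bulk samples, fewer cells of a type and less RNA per cell cannot be told apart.

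The promoter element was looked for in the 300 bases that run from 250 before to 50 after each gene start in RefSeq (build GRCm38.p6), where 31 of the 39 genes had an entry. Usp18, Dhx58, Zbp1, Parp9, Rtp4, Oas2, Mx1 and Parp14 had no entry. The letters searched were GAAA, 2 bases of any kind and GAAA again, on both strands (TTTC, 2 bases and TTTC on the other), with overlapping matches counted separately. They occurred for 15 of the 31 genes (48.4%), against 3.99% of 27025 genes in the same table. At least 2 copies were found for 6 genes (19.4%), against 0.266% of all genes. A match describes letters in this window and does not show that a factor binds there. The stretches below belong to the genes on which the results turn, with the matching letters in capitals, each written 5′ to 3′ along its own gene's strand.
Isg15, 90 to 45 bases before the start, chr4:156200863-156200908, minus strand: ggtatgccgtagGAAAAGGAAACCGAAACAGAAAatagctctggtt
Ifit1, 116 to 64 bases before the start, chr19:34640773-34640825, plus strand: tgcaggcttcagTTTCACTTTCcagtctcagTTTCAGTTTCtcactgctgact
Ifit3, 168 to 101 bases before the start, chr19:34583361-34583428, plus strand: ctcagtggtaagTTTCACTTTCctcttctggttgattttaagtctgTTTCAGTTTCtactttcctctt
Ifit1bl1, 116 to 83 bases before the start, chr19:34602051-34602084, minus strand: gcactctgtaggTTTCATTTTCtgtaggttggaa
Rsad2, 132 to 99 bases before the start, chr12:26456551-26456584, minus strand: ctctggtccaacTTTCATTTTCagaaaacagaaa
Bst2, 142 to 103 bases before the start, chr8:71537575-71537614, minus strand: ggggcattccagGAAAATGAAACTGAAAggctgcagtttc
Isg15 carried 3 overlapping copies, Bst2 held 2 overlapping copies, and Ifit1 and Ifit3 held 2 separate copies each on the other strand. Ifit1bl1 and Rsad2 had 1 copy each in these stretches. The 6 genes were picked from the 15 with matches and do not stand for them. Their levels across the 4 groups are described gene by gene below.

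**Figure D1:**
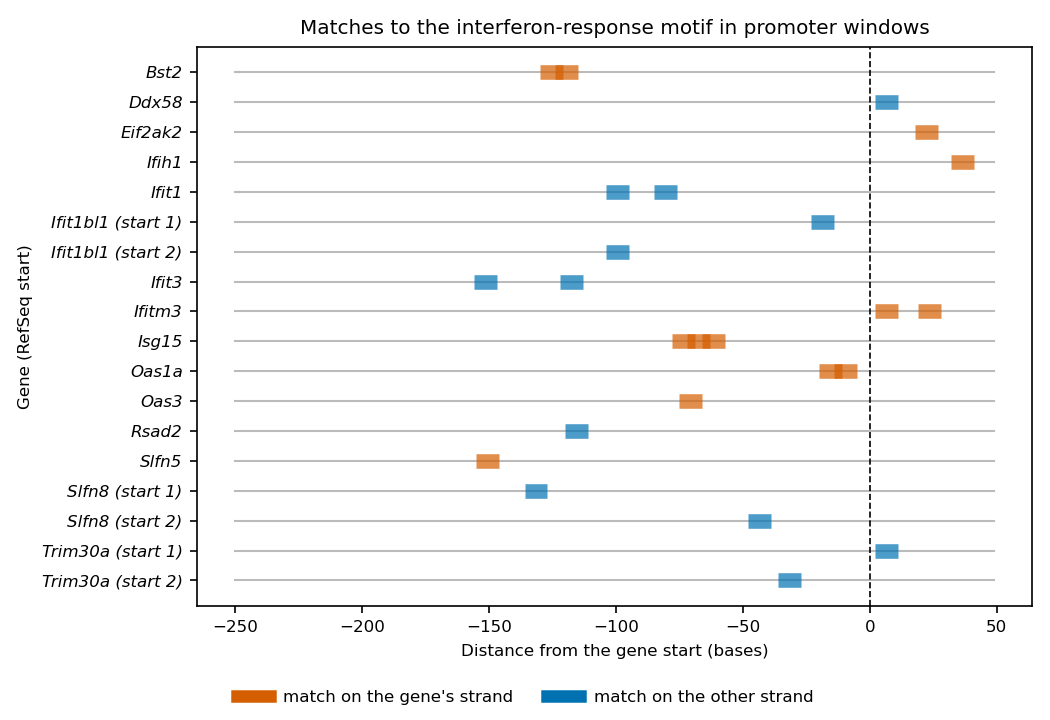
Positions of the response element letters in the promoter windows of the 15 genes that hold them, with distance from the RefSeq gene start in bases on the horizontal axis and 1 line per start. Orange boxes are matches on the gene's strand and blue boxes are matches on the other strand; most lie upstream of the start (dashed line), and 6 genes hold at least 2 copies.

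Almost the whole set fell when naive cells were compared with activated Th0 cells. Of the 39 genes, 36 were lower and 0 higher in Th0 against naive (edgeR quasi-likelihood test, Benjamini-Hochberg adjusted p under 0.05). Over all tested genes 36.4% were lower and 31.3% higher. The median log2 fold change of the 39 was -3.36, against -0.08 over all genes, and 32 of them fell at least 2-fold, which 23.9% of all genes did. Th0 levels were under 5% of the naive level for 12 genes, between 5% and 50% for 20 and at least 50% for 7, with a median of 9.77%. All 36 calls were kept under each of the 16 alternative settings tried.

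**Figure D2:**
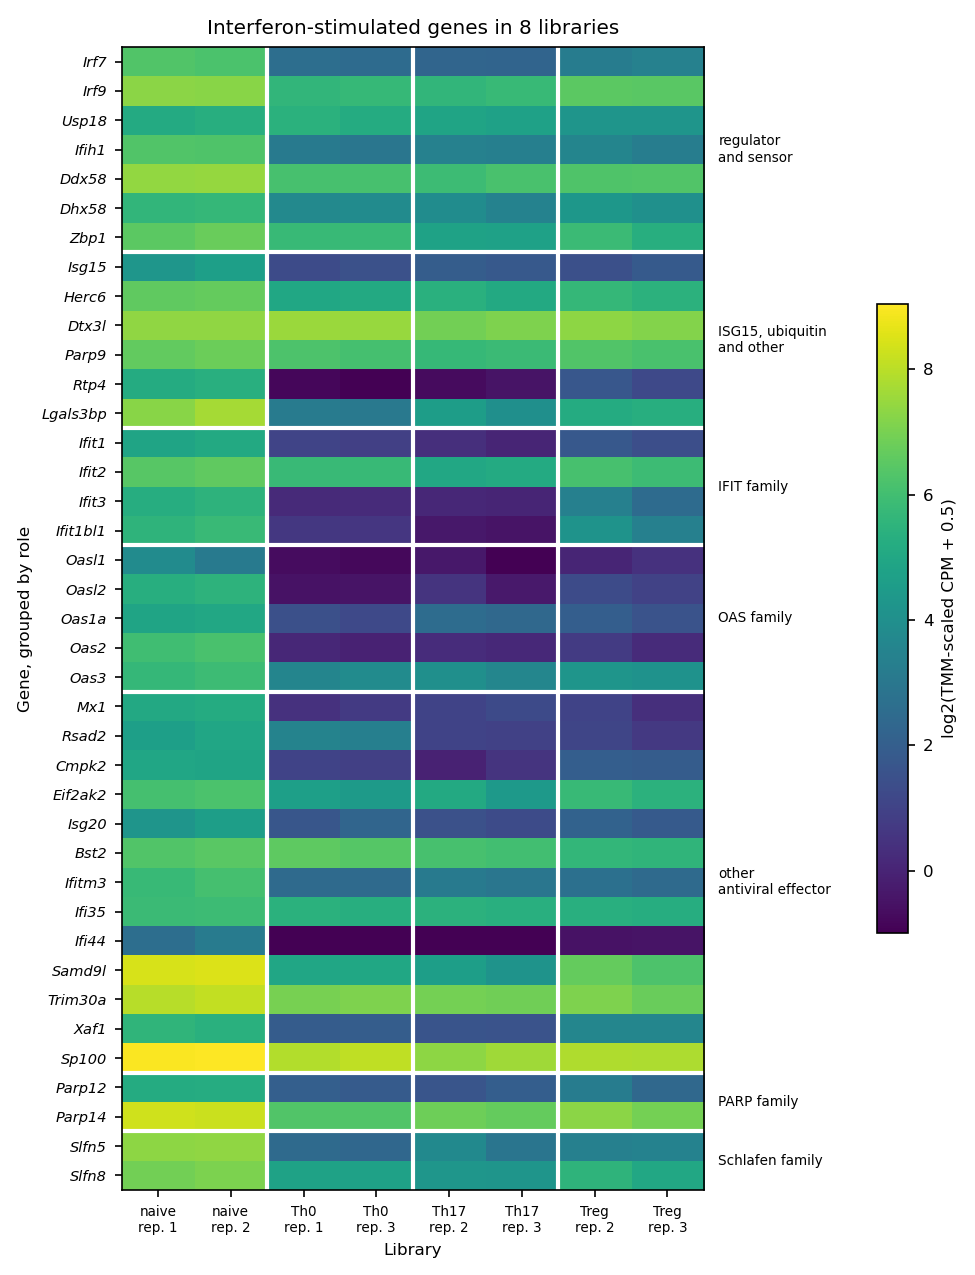
Level of each of the 39 genes (rows, grouped by role) in each of the 8 libraries (columns), as log2 of TMM-scaled CPM plus 0.5. The naive columns are the brightest for most rows, the Th0 and Th17 columns are the darkest, and Usp18, Dtx3l and Bst2 keep a similar shade in naive and Th0.

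Among the regulators and sensors, 6 of 7 fell in Th0 against naive. Irf7, the transcription factor that amplifies interferon production, measured 78.7 and 72.5 CPM in naive cells and 5.61 and 5.16 CPM in Th0. Every Th0 value lay far below both naive values, and the log2 fold change was -3.81 with an SE of 0.14 (edgeR adjusted p = 6.01e-08). Ifih1, which encodes the cytosolic RNA sensor MDA5, fell from 79.9 and 78.0 CPM to 7.99 and 7.24 CPM, a log2 fold change of -3.37 with an SE of 0.15 (edgeR adjusted p = 1.29e-07). Dhx58, a related sensor, fell from 48.6 and 50.7 CPM to 12.9 and 14.1 CPM. Ddx58, which encodes the sensor RIG-I, and Zbp1, a sensor of Z-form nucleic acid, fell less (log2 fold changes -1.31 and -0.85). Irf9 measured 157 and 153 CPM in naive cells and 48.0 and 53.1 CPM in Th0, 32.6% of the naive level.

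In the IFIT family, whose proteins bind viral RNA or hold back its translation, all 4 genes fell in Th0 against naive. Ifit3 measured 37.4 and 44.6 CPM in naive cells and 0.660 and 0.693 CPM in Th0, a log2 fold change of -5.91 with an SE of 0.35 (edgeR adjusted p = 7.24e-07). Ifit1bl1 dropped from 45.8 and 56.0 CPM to 1.06 and 1.00 CPM (-5.62, SE 0.32), and Ifit1 from 28.7 and 34.3 CPM to 1.58 and 1.39 CPM (-4.40, SE 0.25). Ifit2 stood apart within the family: it held 59.7% of its naive level in Th0, while the other 3 held 1.65% to 4.71%. The 4 genes lie near each other on chromosome 19, with 4157 to 38903 bases between successive genes of the set. Other genes may lie in these gaps.

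The OAS family, made up of enzymes and relatives that sense double-stranded RNA and lead to RNA cleavage, fell in Th0 against naive in all 5 of its genes, to between 0.515% and 23.1% of the naive level. Oas2 measured 62.9 and 71.1 CPM in naive cells and 0.594 and 0.462 CPM in Th0, a log2 fold change of -6.95 with an SE of 0.25 (edgeR adjusted p = 4.62e-08). Oasl2 measured 38.7 and 44.6 CPM against 0.198 and 0.231 CPM, the latter at the limit of 3 counts. Oasl1, known in mice as a brake on Irf7 translation, rested on 3 counts over both Th0 libraries and 479 in naive, a ratio of 103 with an exact 95% interval of 34.9 to 499. Both Th0 libraries were below both naive libraries for every OAS gene.

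Isg15, a ubiquitin-like protein attached to other proteins, measured 19.1 and 24.8 CPM in naive cells and 1.98 and 2.31 CPM in Th0, a log2 fold change of -3.36 with an SE of 0.26 (edgeR adjusted p = 3.47e-06). Herc6, the ligase that attaches it in mice, kept 32.5% of its naive level. Rtp4, a chaperone of receptor traffic that was counted in the same group, had 1659 counts over the naive libraries and 1 count over the Th0 libraries, a ratio of 1065 with an exact 95% interval of 191 to 42094. Lgals3bp, a secreted glycoprotein, fell from 154 and 209 CPM to 8.52 and 7.93 CPM (log2 fold change -4.46, SE 0.22).

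Of the 13 other effectors, 12 fell in Th0 against naive. Mx1, a gene of the Mx GTPase family, measured 32.6 and 36.1 CPM in naive cells and 0.858 and 1.15 CPM in Th0. Its log2 fold change was -5.09 with an SE of 0.29 (edgeR adjusted p = 5.64e-07). Cmpk2, a nucleotide kinase, fell from 30.0 and 28.9 CPM to 1.52 and 1.39 CPM (-4.33, SE 0.25). Ifi44 had 313 counts over the naive libraries and none in Th0 or Th17, which makes it at least 33.0-fold lower in Th0 and at least 35.0-fold lower in Th17, taking 3 counts per library as the limit. Rsad2, which encodes viperin, an enzyme that makes a chain-terminating nucleotide, fell less, from 24.9 and 30.3 CPM to 10.6 and 9.70 CPM (-1.44, SE 0.20).

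Parp12 and Parp14, ADP-ribosyltransferases, fell by log2 fold changes of -3.43 and -1.97. Slfn5, a member of the Schlafen family linked to growth control, fell from 161 and 168 CPM to 5.02 and 4.62 CPM (-5.09, SE 0.25, edgeR adjusted p = 2.34e-07). Slfn8, the other Schlafen gene of the set, fell from 121 and 134 CPM to 27.5 and 26.1 CPM.

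Usp18, Dtx3l and Bst2 were not called in Th0 against naive. Usp18, which removes ISG15 from proteins and damps receptor signalling, measured 34.7 and 38.5 CPM in naive cells and 42.4 and 35.6 CPM in Th0 (log2 fold change 0.09, SE 0.13, edgeR adjusted p = 0.535). Bst2, or tetherin, which holds budding virions at the cell surface, measured 79.1 and 89.3 CPM against 93.0 and 84.2 CPM (0.07, SE 0.11, edgeR adjusted p = 0.562). The groups overlapped for both genes. Dtx3l, a ubiquitin ligase that partners Parp9, measured 167 and 168 CPM in naive cells and 184 and 178 CPM in Th0 (0.11, SE 0.09, edgeR adjusted p = 0.314), so that both Th0 libraries were the higher ones.

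Markers of other cells also differed in Th0 against naive, where over all genes 36.4% were lower and 31.3% higher. Of 19 myeloid and dendritic cell markers, all 19 were lower in Th0 and 6 had no count there. Of 12 markers of plasmacytoid dendritic cells, which are known for interferon production, 8 were lower and 1 higher in Th0, and 2 had no count there. The median log2 fold change of these 12 in Th0 against naive was -1.73. They summed to 657 and 636 CPM in naive libraries, 619 and 602 CPM in Th0, 655 and 704 CPM in Th17 and 409 and 433 CPM in Treg, with Bst2 among them. Such a sum follows the genes with the most counts, so it does not measure how many of these cells were present. Siglech, a defining marker of these cells, measured 23.0 and 24.4 CPM in naive libraries, 0.0660 and 0.0770 CPM in Th0 and 0 in Th17 and Treg. All 12 B cell markers were lower in Th0, and they summed to 1767 and 1428 CPM in naive libraries and to 232 and 242 CPM in Th0. The 7 NK cell markers were all lower, at 105 and 101 CPM summed against 23.0 and 21.9 CPM, whereas Cd8a and Cd8b1 were both higher, at 91.6 and 82.0 CPM summed against 176 and 176 CPM. All 8 red blood cell markers were lower in Th0, at 386 and 320 CPM summed in naive libraries against 1.45 and 0.924 CPM. The part of all these cells in the levels of the 39 genes was not tested.

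Between Th17 and Th0 the set changed in both directions. In Th17 against Th0, 13 of the 39 genes were lower and 5 higher (edgeR adjusted p under 0.05), where over all genes 12.6% were lower and 16.1% higher. The median log2 fold change was -0.12, against 0.05 over all genes. The 13 included 3 of 4 IFIT genes and 5 of 13 other effectors. The count of lower genes was 8 without naive replicate 2 or Th0 replicate 3, 7 without Th17 replicate 2 or Th17 replicate 3, and 5 without Th0 replicate 1. The count of higher genes was 3 without Th17 replicate 2 and 2 without either Th0 library. Zbp1, Dtx3l, Ifit2, Rsad2 and Sp100 stayed lower, and Lgals3bp and Oas1a higher, under all 16 alternatives.

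Rsad2 measured 1.53 and 1.44 CPM in Th17 and 1.64 and 1.07 CPM in Treg, against 10.6 and 9.70 CPM in Th0. The Th17 and Treg values overlapped each other and lay far below both Th0 values. The log2 fold change was -2.77 in Th17 against Th0 (SE 0.24, edgeR adjusted p = 8.02e-05) and -2.89 in Treg against Th0 (SE 0.25, edgeR adjusted p = 5.58e-05), while Th17 against Treg gave 0.12 (SE 0.30, edgeR adjusted p = 0.819). These comparisons share the Th0 libraries.

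Zbp1 measured 27.2 and 26.3 CPM in Th17 and 54.7 and 55.9 CPM in Th0, a log2 fold change of -1.05 with an SE of 0.18 (edgeR adjusted p = 0.00276). Ifit2 measured 31.7 and 34.8 CPM against 55.5 and 54.7 CPM (-0.73, SE 0.12, edgeR adjusted p = 0.00226). For both genes the 2 groups were well separated. Dtx3l fell to 119 and 136 CPM (-0.50, SE 0.10, edgeR adjusted p = 0.00476). Ifit1bl1 was at 0.294 and 0.227 CPM in Th17, near the counting limit, and Ifit3 at 0.587 and 0.530 CPM was not called (-0.26, SE 0.54, edgeR adjusted p = 0.751).

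Lgals3bp measured 23.4 and 15.7 CPM in Th17 against 8.52 and 7.93 CPM in Th0 (1.25, SE 0.22, edgeR adjusted p = 0.0033). Oas1a, an oligoadenylate synthetase, measured 5.35 and 4.70 CPM against 2.24 and 1.85 CPM (1.29, SE 0.24, edgeR adjusted p = 0.00453). Both Th17 libraries were above both Th0 libraries for each. Slfn5, Ifitm3, which blocks viral entry at endosomes, and Parp14 were the other 3 genes called higher (1.08, 0.61 and 0.43), and each lost its call without either Th0 library. Ifitm3 and Parp14 also lost it without Th17 replicate 2, and Ifitm3 without naive replicate 2. Ifitm3 lost it too under DESeq2, limma-voom, the replicate number as a block and fits of only the 2 groups compared. Parp14 lost it with the replicate number as a block, and Slfn5 with only the 2 groups compared. Isg15 at 3.35 and 2.95 CPM (0.56, edgeR adjusted p = 0.16), Mx1 at 1.53 and 1.89 CPM (0.76, edgeR adjusted p = 0.134) and Irf7 at 4.29 and 4.17 CPM (-0.35, edgeR adjusted p = 0.129) were not called.

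In Th17 against Th0, 13 of the 19 myeloid and dendritic cell markers were higher, at 138 and 145 CPM summed against 44.3 and 37.6 CPM, and 9 of 12 B cell markers were higher and 1 lower, at 586 and 641 CPM against 232 and 242 CPM. Over all genes 16.1% were higher and 12.6% lower, and the 7 NK cell markers, with 1 higher and 1 lower, were near these shares. The 12 plasmacytoid markers had 4 higher and 2 lower, the CD8 T cell markers 0 and 2, and the 18 pan T cell genes 0 and 12. Their part in the levels of the 39 genes was not tested.

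The Treg libraries held higher levels of much of the set than Th0. In Treg against Th0, 20 of the 39 genes were higher and 3 lower (edgeR adjusted p under 0.05), where over all genes 25.7% were higher and 20.6% lower. The median log2 fold change was 0.56, against 0.09 over all genes. With Ifi44, which had no count in Th0, set to no change, and Rtp4 and Oasl1 to their pooled count ratios, the median was 0.54. The 20 included 2 of 4 IFIT genes, 3 of 5 OAS genes, Parp12 and Parp14 but not Parp9, and both Schlafen genes. Without Th0 replicate 1 the count of higher genes was 13, and it was 13 without Treg replicate 2. The calls of Ifih1, Herc6, Oasl1, Oas3, Ifi44, Parp12 and Slfn8 were lost in both cases, and the other 13 held under all 16 alternatives.

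**Figure D3:**
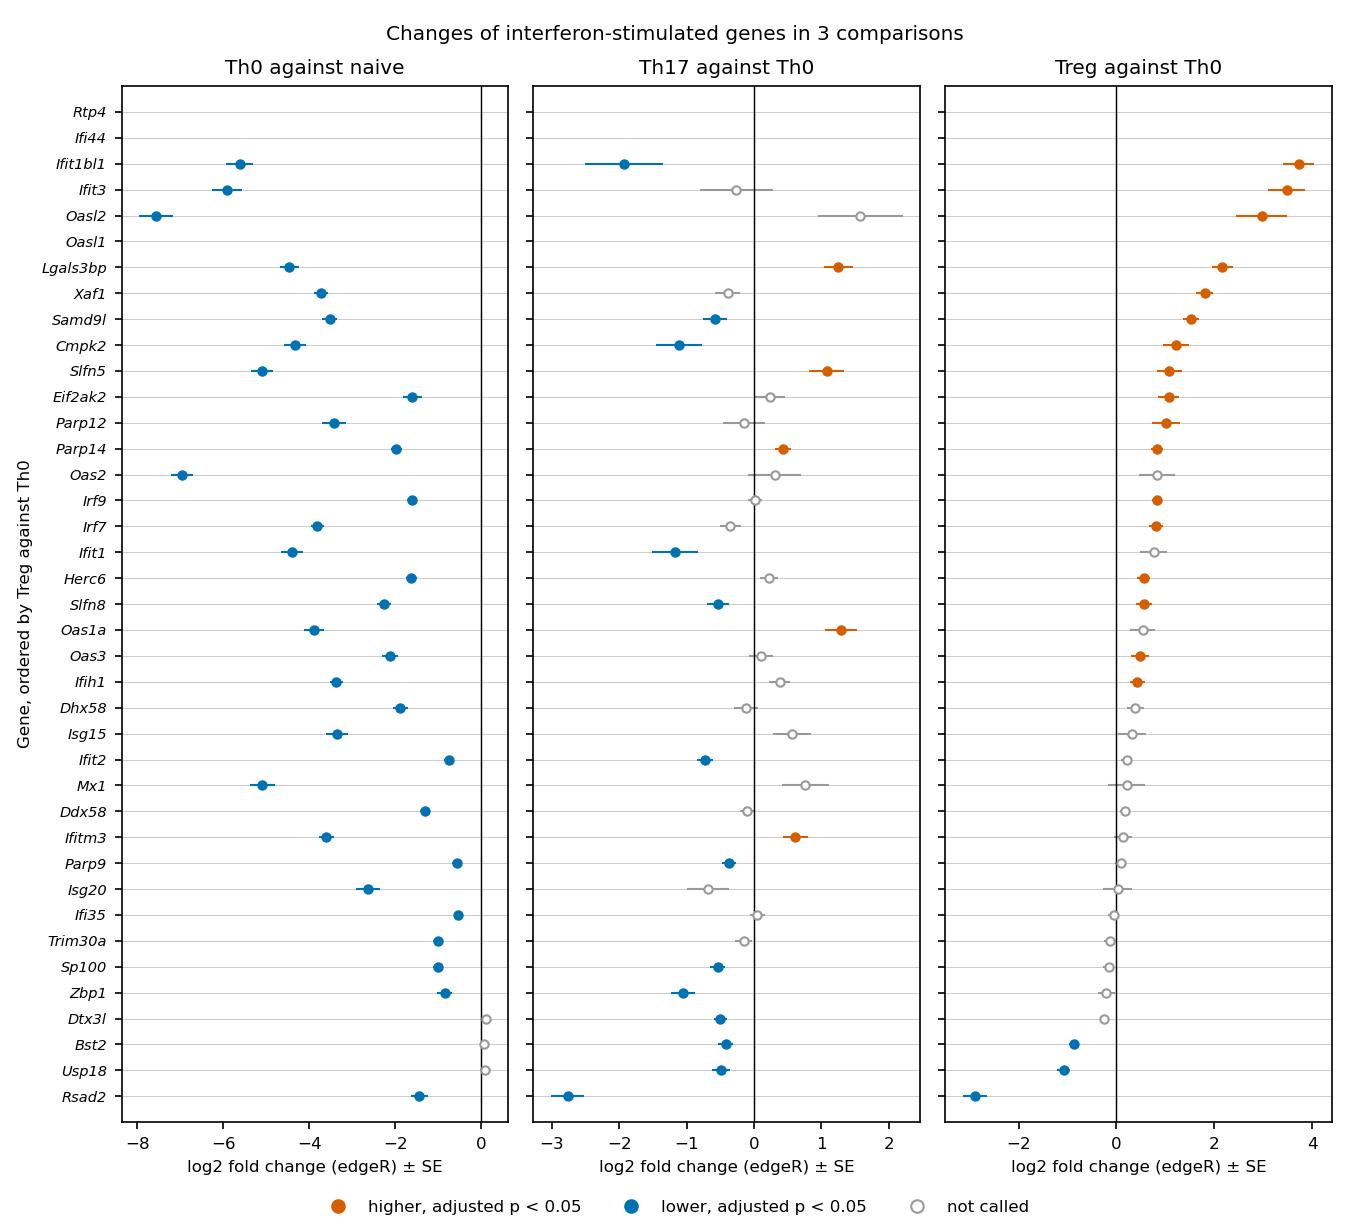
Log2 fold change (edgeR, horizontal bars show 1 SE) of each gene in Th0 against naive, Th17 against Th0 and Treg against Th0, ordered by the last. Filled orange points were higher, filled blue points lower and open grey points not called; Rtp4, Oasl1 and Ifi44 have no point because they had at most 3 counts in Th0. Nearly all points in the left panel lie below 0, and the right panel runs from Rsad2 at -2.89 to Ifit1bl1 at 3.72.

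Ifit1bl1 measured 17.3 and 9.96 CPM in Treg against 1.06 and 1.00 CPM in Th0, a log2 fold change of 3.72 with an SE of 0.33 (edgeR adjusted p = 5.84e-05). Its neighbour Ifit3 measured 9.89 and 5.21 CPM against 0.660 and 0.693 CPM (3.48, SE 0.38, edgeR adjusted p = 0.000141). Both Treg libraries were above both Th0 libraries for the pair, with replicate 2 higher than replicate 3, and both stayed under the naive level, at 26.8% and 18.4% of it. Ifit1 at 2.88 and 2.15 CPM (0.76, SE 0.28, edgeR adjusted p = 0.0511) and Ifit2 at 68.8 and 58.7 CPM (0.21, SE 0.12, edgeR adjusted p = 0.166) were not called. Ifit3 and Ifit3b are near-identical, with 97.4% of the Ifit3 transcript covered by Ifit3b at 95% identity or more, so reads may be shared between them. Ifit3b had no count in Th0 or Th17 and measured 2.75 and 2.99 CPM in Treg.

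Irf9, part of the complex that binds the response element, measured 90.7 and 88.3 CPM in Treg against 48.0 and 53.1 CPM in Th0 (0.82, SE 0.10, edgeR adjusted p = 0.000243). Irf7 measured 8.91 and 10.04 CPM against 5.61 and 5.16 CPM (0.81, SE 0.15, edgeR adjusted p = 0.00205). The groups did not overlap for either factor, and Treg stayed at 57.7% and 12.5% of the naive level. Lgals3bp measured 35.4 and 38.7 CPM (2.17, SE 0.22, edgeR adjusted p = 0.000103), above both Th0 libraries. Rtp4 had 67 counts over the Treg libraries and 1 over the Th0 libraries, a ratio of 66.6 with an exact 95% interval of 11.5 to 2668.

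Among the effectors, Xaf1, a partner of the caspase inhibitor XIAP, measured 11.8 and 11.6 CPM in Treg against 3.30 and 3.39 CPM in Th0 (1.80, SE 0.17, edgeR adjusted p = 7.27e-05). Samd9l, which restricts poxviruses and restrains proliferation, measured 101 and 76.1 CPM against 30.6 and 31.3 CPM (1.52, SE 0.17, edgeR adjusted p = 0.000169); it was picked for full values after they were seen. Oasl2 measured 1.97 and 1.46 CPM against 0.198 and 0.231 CPM (2.97, SE 0.53, edgeR adjusted p = 0.00177). Treg libraries were the higher ones for all 3 genes. Slfn5 at 9.89 and 10.5 CPM was above both Th0 libraries (1.08, SE 0.26, edgeR adjusted p = 0.00788) at 6.19% of its naive level. Ifi44 had 6 counts over both Treg libraries, at the counting limit, so that its call carries no fold.

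Rsad2, Usp18 and Bst2 were the 3 genes lower in Treg against Th0, and all 3 calls held under the 16 alternatives. Usp18 measured 18.6 and 18.5 CPM in Treg (-1.07, SE 0.13, edgeR adjusted p = 0.000277) and 28.8 and 26.7 CPM in Th17. Bst2 measured 50.4 and 46.8 CPM in Treg (-0.87, SE 0.11, edgeR adjusted p = 0.000324) and 69.3 and 63.1 CPM in Th17. For both genes the Treg values were the lowest of the 8 libraries, the Th17 values came next, and the Treg, Th17 and Th0 groups did not overlap. Rsad2 and Cmpk2 are neighbours on chromosome 12, 12752 bases apart on opposite strands, and Cmpk2 measured 3.47 and 3.30 CPM in Treg against 1.52 and 1.39 CPM in Th0 (1.21, SE 0.27, edgeR adjusted p = 0.00569). The neighbours were thus called in opposite directions in Treg against Th0. In Th17, Cmpk2 measured 0.470 and 0.909 CPM.

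**Figure D4:**
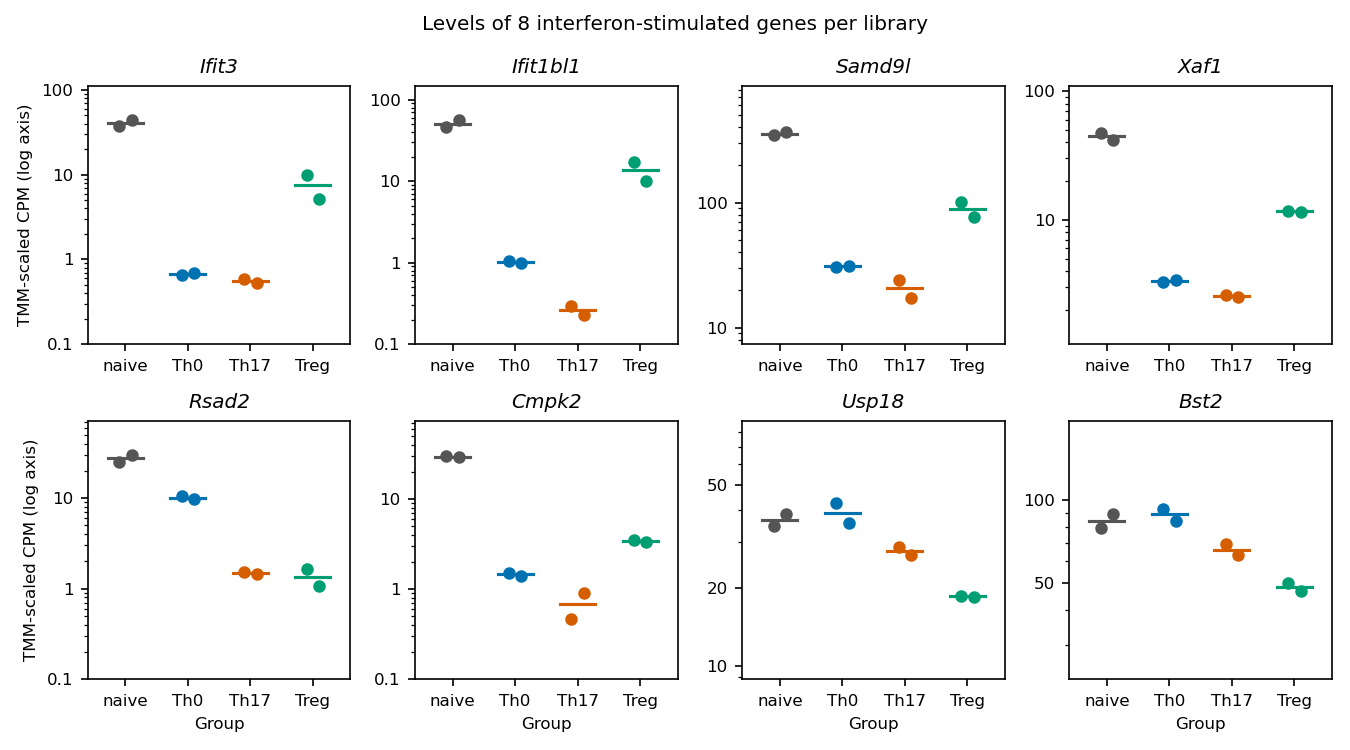
TMM-scaled CPM on log axes for 8 of the genes, with 1 point per library and a line at the mean of each group of 2 libraries. Ifit3, Ifit1bl1, Samd9l, Xaf1 and Cmpk2 are higher in Treg than in Th0, whereas Rsad2, Usp18 and Bst2 are lower in Treg than in Th0.

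Set directly against each other, Th17 libraries were lower than Treg for 20 of the 39 genes and higher for 3 (edgeR adjusted p under 0.05), where over all genes 14.5% were lower and 14.8% higher. The median log2 fold change was -0.52, or -0.51 with the gene at no count in Th17 set to its bound, against -0.03 over all genes. All 4 IFIT genes were lower in Th17, by log2 fold changes of -5.65 for Ifit1bl1 (SE 0.40, edgeR adjusted p = 2.99e-05), -3.74 for Ifit3, -1.93 for Ifit1 and -0.94 for Ifit2. Cmpk2 (-2.33) and Xaf1 (-2.20) followed among the effectors, and Irf7 (-1.16) and Irf9 (-0.81) among the factors. Usp18 (0.58), Oas1a (0.75) and Bst2 (0.45) were the 3 higher genes. Without Treg replicate 2 the count of lower genes was 12 and that of higher genes 1; the count of higher genes was 1 without Th17 replicate 2 and 0 without Treg replicate 3. In the same comparison 10 of 12 B cell markers were higher and 1 lower in Th17, 2 of 19 myeloid and dendritic cell markers higher and 11 lower, 6 of 12 plasmacytoid markers higher and 1 lower, 3 of 7 NK cell markers lower and both CD8 T cell markers lower, and their part was not tested.

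All 39 genes measured less in both Th17 and both Treg libraries than in either naive library. Both libraries were below both naive libraries for 42.5% of all genes in Th17 and for 41.9% in Treg. In Th17 against naive, 39 of 39 were lower by edgeR (32.8% of all genes), with a median log2 fold change of -2.98. The calls of Usp18 and Bst2 there were lost without naive replicate 2 or without Th17 replicate 3. In Treg against naive, 37 were lower by edgeR (29% of all genes), with a median of -1.999, and Dtx3l (-0.13, edgeR adjusted p = 0.257) and Eif2ak2 (-0.53, edgeR adjusted p = 0.0532), which encodes the translation-blocking kinase PKR, were not called. The median gene stood at 12.6% of its naive level in Th17 and at 25% in Treg. These 2 comparisons and that of Th0 share the naive libraries.

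Treg replicate 2 exceeded replicate 3 for 32 of the 39 genes, with a median log2 ratio of 0.25, whereas 51.4% of all genes did so with a median of 0.0075. Samd9l, Ifit3, Ifit1bl1, Parp12, Zbp1 and Slfn8 were among them, and Irf7, Ddx58, Lgals3bp and Isg15 were higher in replicate 3. In the naive group, replicate 1 was the higher library for 7 genes (49.5% of all genes). Th17 replicate 2 exceeded replicate 3 for 28 genes (50.7% of all genes), and Th0 replicate 1 exceeded replicate 3 for 22 (49.2% of all genes).

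Levels of different genes were compared per transcript length, on the deposited FPKM scale. Bst2 had the highest level of the 39 in each group, at 113 ± 9.77 FPKM in naive cells (SD, n = 2), 108 ± 7.46 in Th0, 87.4 ± 8.02 in Th17 and 66.1 ± 2.97 in Treg. In naive cells Ifitm3 came next at 92.0 ± 13.7 FPKM, followed by Samd9l at 63.3 ± 2.94 FPKM, and Ifi44 was the lowest at 0.966 FPKM. In Th0 the next genes were Sp100 (a nuclear body protein), Trim30a and Dtx3l, at 24.0 ± 2.39, 23.6 ± 1.46 and 23.2 ± 0.515 FPKM, which did not differ beyond their spread.

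Set by the response element letters, 14 of 15 genes with them and 15 of 16 without them fell in Th0 against naive (36.4% of all genes). In Treg against Th0, 7 of 15 genes with the letters were higher and 2 lower, with a median log2 fold change of 0.49. Of the 16 genes without them, 11 were higher and 0 lower, with a median of 0.92. Over all genes 25.7% were higher and 20.6% lower in that comparison, with a median of 0.09. The difference between genes with and without the letters was not tested. The 6 genes whose stretches are printed above show the range: in Treg against Th0, Ifit3 and Ifit1bl1 rose, Rsad2 and Bst2 fell, and Isg15 (0.32, edgeR adjusted p = 0.389) and Ifit1 were not called.

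Upstream of the set, transcripts of type I and type III interferons were at the counting limit. Of 20 type I and type III interferon genes in the table, 14 had no count in any library and 6 had 1 or 2 counts, 8 counts in all. Ifng, the type II interferon, measured 60.7 and 32.1 CPM in Treg against 9.51 and 9.93 CPM in Th0 (2.26, SE 0.29, edgeR adjusted p = 0.000366), and 13.5 and 14.9 CPM in naive libraries. Both Treg libraries were the highest of all 8, with replicate 2 above replicate 3. Markers of other cells also differed in Treg against Th0, where over all genes 25.7% were higher and 20.6% lower. Higher were 4 of 7 NK cell markers, 2 of 2 CD8 T cell markers and 16 of 19 myeloid and dendritic cell markers, with 1 myeloid marker lower. Of the 12 B cell markers 1 was higher and 5 lower, and of the 12 plasmacytoid markers 0 were higher and 4 lower. The 18 pan T cell genes had 2 higher and 8 lower. The 7 NK cell markers summed to 113 and 121 CPM in Treg against 23.0 and 21.9 CPM in Th0, Cd8a and Cd8b1 to 426 and 469 CPM against 176 and 176 CPM, and the 19 myeloid markers to 163 and 133 CPM against 44.3 and 37.6 CPM. The part of Ifng or of such cells in the Treg levels of the 39 genes was not tested.

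Ifnar1, a chain of the type I receptor, measured 225 and 244 CPM in Th0 against 186 and 184 CPM in naive cells (0.34, SE 0.09, edgeR adjusted p = 0.00672), and it was lower in Th17 (-0.51) and Treg (-0.33) against Th0. Ifnar2 was lower in Th17 against Th0 (-0.53, SE 0.14, edgeR adjusted p = 0.019). Of the 9 genes for receptors and kinases, 3 were higher and 3 lower in Th0 against naive, shares near those of all genes given above (31.3% and 36.4%). In Th17 against Th0, 1 was higher and 5 lower (16.1% and 12.6% of all genes), and in Treg against Th0, 1 and 3 (25.7% and 20.6% of all genes). Tyk2 fell in Th0 against naive (-1.04) and rose in Treg against Th0 (0.46).

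Stat2 was called in none of Th0 against naive, Th17 against Th0 and Treg against Th0 (log2 fold changes 0.03, 0.22 and 0.01; edgeR adjusted p = 0.759, 0.105 and 0.928). Irf1, a factor induced by both interferon types, fell in Th0 against naive (-0.66, SE 0.19, edgeR adjusted p = 0.0104). Of the 8 transcription factor genes, 1 was higher and 5 lower in Th0 against naive (31.3% and 36.4% of all genes). In Treg against Th0, 5 of the 8 were higher and 1 lower (25.7% and 20.6% of all genes). Irf5, a factor downstream of Toll-like receptors, changed most of the 8, by -3.34 in Th0 against naive and 1.82 in Treg against Th0.

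Of 15 genes for sensing upstream of interferon, 2 were higher and 9 lower in Th0 against naive (31.3% and 36.4% of all genes). In Treg against Th0, 7 of the 15 were higher and 3 lower (25.7% and 20.6% of all genes). Tlr9, the receptor for unmethylated DNA, measured 53.5 and 49.03 CPM in naive libraries and 0.264 and 0.154 CPM in Th0. Of 13 negative regulators, 4 were higher and 7 lower in Th0 against naive, with the higher share near the 31.3% of all genes (36.4% lower). Socs1, an inhibitor of the JAK kinases, rose in Th0 against naive, where most of the 39 genes fell (0.58, SE 0.22, edgeR adjusted p = 0.0399), and also in Th17 against Th0 (1.12) and Treg against Th0 (1.01). Adar, which edits double-stranded RNA, fell in Th0 against naive (-1.68) and rose in Treg against Th0 (0.82).

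A wider list held 84 other interferon-stimulated genes, of which 81 passed the filter. In Th0 against naive, 62 of the 81 were lower and 12 higher (median log2 fold change -1.15). Over all genes 36.4% were lower and 31.3% higher (median -0.08). In Th17 against Th0, 20 were lower and 14 higher (-0.06), where over all genes 12.6% were lower and 16.1% higher (0.05). In Treg against Th0, 31 were higher and 8 lower (0.39), where over all genes 25.7% were higher and 20.6% lower (0.09). Among the 12 higher in Th0 against naive was Ly6a, a surface antigen of activated lymphocytes (2.57). Ifitm1, a relative of Ifitm3, rose in Th17 against Th0 (2.58) and in Treg against Th0 (2.37).

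Some values carry limits of the counting. Parp9 and Dtx3l overlap by 682 bases on opposite strands, and the strandedness of the libraries was not given in the sources used here, so reads of the overlap cannot be assigned. Slfn5, Usp18, Dhx58, Rtp4, Herc6, Irf7, Irf9, Parp14, Oas2, Oasl1, Sp100, Ifi35, Trim30a and Eif2ak2 also overlap other genes. The overlaps run from 38 bases for Oasl1 to 45031 bases for Herc6. Oas1a is covered over 100% of its transcript by Oas1g at 95% identity or more, and Isg15 over 63.8% by a related copy, so values of these members are uncertain.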

How the data were processed

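Each gene has 2 deposited values per library, per the file headers: a read count and an FPKM, which is that count scaled to transcript length and library total. Bowtie2 and RSEM are the tools in the submitters' processing notes, which also list GRCm38.p6 and mm10 as builds. Whether the whole-number counts deposited by the authors are rounded RSEM estimates, and the strandedness, are not given in the sources used here. Groups and replicate numbers came from the sample titles.

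Counts were tested with edgeR 4.0.16 (glmQLFit, glmQLFTest) in R 4.3.3 with limma 3.58.1. A single model of 4 group means took in the 8 libraries, with filterByExpr by group (14690 genes), TMM scaling, and Benjamini-Hochberg adjustment over all genes per contrast, called under 0.05. The common biological coefficient of variation was 0.13 on 4 residual degrees of freedom. The SE was taken as log2 fold change over root F. The script was tested on simulated data. Deposited FPKM values served only to compare levels between genes. For genes with 1 to 3 counts in a group, ratios carry exact 95% intervals; intervals and limits cover counting error only. Replicates differed by more than counting noise (chi-square per degree of freedom 8.93 to 17.85). Promoter windows are from RefSeq.

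The 39 genes and the lists were chosen with earlier results of these data known. Full values go to at most 3 called genes per role and contrast, those with the largest change, and to genes called against the main direction. From each pathway list at most 4 such genes are named, besides the ligands, Stat2, Ifnar1, Ifnar2, Irf1 and Socs1. Any other gene given values was chosen after its values were seen. Some genes that the rule names are not reported here. Alternatives were DESeq2 1.42.0, limma-voom, scaling by RLE or by the upper quartile, testing without a filter, a filter at 5 CPM in 2 libraries, the replicate number as a block, fits of only the 2 groups compared, and leaving out each library.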

Additional observations from a re-analysis of the deposited data

How the results depend on the processing

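Of the 16 alternatives, none changed the count of genes lower in Th0, Th17 or Treg against naive, or lower in Treg against Th0, by more than 1.5 times. In Th17 against Th0 the 13 lower genes became 8 with limma-voom and 8 with only the 2 groups compared, and 5 to 13 when 1 library was left out. The 5 higher genes became 3 with only the 2 groups compared and 2 to 7 when 1 library was left out. In Treg against Th0 the 20 higher genes ranged from 13 to 21 when 1 library was left out. In Th17 against Treg the 20 lower genes ranged from 12 to 21 and the 3 higher genes from 0 to 3. The cause was not tested. A call was gained in 5 alternatives by Ifit1 in Treg against Th0 and in 9 by Eif2ak2 in Treg against naive. Log2 fold changes near 0 turned sign for Usp18 (-0.0205 without Th0 replicate 1, up to 0.2201 without Th0 replicate 3) and Bst2 (-0.0135 without naive replicate 1, up to 0.1557 without naive replicate 2) in Th0 against naive, and for Rsad2 (-0.15 without Treg replicate 3, up to 0.47 without Treg replicate 2) in Th17 against Treg.

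Over all genes, the 4211 calls of Th17 against Th0 became 2630 without Th17 replicate 2 and 2798 without Th0 replicate 3, and the 4294 of Th17 against Treg became 2444 without Th17 replicate 3 and 1878 without Treg replicate 2. Leaving out a library leaves 1 in its group, which is assumed to vary like the others. Th17 and Treg shared the numbers 2 and 3, and their deviations correlated at r = 0.12 across 14690 genes; with the replicate number as a block, the 5 higher genes of Th17 against Th0 became 3. Depth limits Ifi44, Oasl1, Oasl2 and Rtp4, which had few counts in the cultured groups.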
